A study of Mus musculus with 4 samples.

Results

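The E proteins Tcf3 (E2A), Tcf4 and Tcf12, their inhibitors Id1, Id2 and Id3, and the B lineage factor Ebf1 were followed in RNA-seq data of sorted splenic follicular B cells. The 7 genes were picked by symbol from the 23305 genes of the data, and all 7 were found. E proteins are basic helix-loop-helix transcription factors that bind E-box DNA as dimers. Id proteins share the helix-loop-helix but lack the basic region, so a dimer of an E protein with an Id protein does not bind DNA, and the balance of both families sets E protein activity. Ebf1 acts with Tcf3 and Pax5 to specify B cells and to keep their identity in the periphery, Id3 is the Id protein best known for restraining E proteins in resting lymphocytes, and Id2 is best known from innate lymphoid and dendritic cells and from activated lymphocytes.

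WT and Ets1-/- cells were compared, with 2 biological replicates each. The WT libraries came from C57BL/6 mice. The Ets1-/- libraries came from mice with a mutated Ets1 gene in all cells, kept on a C57BL/6 x 129Sv mixed background, so the effects of strain and genotype cannot be told apart. Spleens of female mice were used, no age is given for them, and follicular B cells (B220+, CD23-high, CD21-low) that carried neither CD80 nor switched immunoglobulins on their surface were sorted. Levels are given as FPKM, a fragment count scaled to gene length and library size, so that genes can be compared per length. Read counts per gene are unknown, and the steps between low values gave a rough relative depth of 0.876 to 1.75 times that of WT replicate 1, which 28.9% to 41.4% of the low genes shared. Ets1 itself was at 231 and 275 FPKM in WT and at 229 and 229.8 FPKM in Ets1-/- cells, a value over the whole gene that does not tell the genotypes apart. The 7 B cell markers, Cd79a and Ms4a1 among them, summed to between 5233 and 6524 FPKM per library, so the cells carried the transcripts of their label.

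The main difference lay within the Id family. Id2 was higher and Id3 was lower in both Ets1-/- libraries than in both WT libraries, so Id2 made up more of the Id transcripts, while the 3 E proteins overlapped between the genotypes and the Ebf1 means differed little (67.5 and 74.0 FPKM). None of the members passed both thresholds of the test. Expression was tested with limma on log2(FPKM + 1) over the 10949 genes with a mean of at least 1 FPKM in either genotype, and a gene was called changed at a log2 fold change of at least 1 in either direction and a Benjamini-Hochberg adjusted p of 0.05 or less. Of all genes tested 186, or 1.70%, were called, and of the 6 members tested 0 were called. Before adjustment 2 of the 6, Id2 and Id3, had a p under 0.05, beside 13.3% of all genes tested. The genotypes did not overlap for 3 of the 6, Id2, Id3 and Ebf1, and for 41.6% of all genes tested. The remaining member, Id1, was below the filter. The median log2 fold change of the 6 was 0.09 and that of all genes tested was -0.02. In bulk libraries such as these, fewer cells of a type and less RNA per cell cannot be told apart.

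The DNA in front of the members most relevant here is shown because the mutated factor is an ETS protein, whose family binds a GGAA core, and because E proteins and Id proteins act through E-boxes. RefSeq start sites came from build GRCm38.p6, not the mm9 build of the expression data. They were taken for 5 of the 7 members, with 8 start sites in all. Id1 and Tcf4 were not included, so their windows were not examined. The windows hold the 250 bases before the start, 5′ to 3′ on the strand of the gene, with each GGAA, or TTCC on the other strand, in capitals. The Id2 window lies at chr12:25096093-25096342 on the minus strand, the Id3 window at chr4:136143572-136143821 on the plus strand and the Tcf3 window at chr10:80433636-80433885 on the minus strand.
Id2: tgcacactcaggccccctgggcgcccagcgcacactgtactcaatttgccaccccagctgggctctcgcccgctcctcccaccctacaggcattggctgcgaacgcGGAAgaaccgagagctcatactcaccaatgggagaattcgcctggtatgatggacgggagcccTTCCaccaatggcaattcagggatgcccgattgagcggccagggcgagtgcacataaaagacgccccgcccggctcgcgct
Id3: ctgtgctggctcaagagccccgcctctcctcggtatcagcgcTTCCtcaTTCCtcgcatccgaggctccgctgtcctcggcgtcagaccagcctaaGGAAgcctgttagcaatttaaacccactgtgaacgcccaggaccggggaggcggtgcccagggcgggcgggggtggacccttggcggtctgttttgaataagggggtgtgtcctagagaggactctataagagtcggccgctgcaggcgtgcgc
Tcf3: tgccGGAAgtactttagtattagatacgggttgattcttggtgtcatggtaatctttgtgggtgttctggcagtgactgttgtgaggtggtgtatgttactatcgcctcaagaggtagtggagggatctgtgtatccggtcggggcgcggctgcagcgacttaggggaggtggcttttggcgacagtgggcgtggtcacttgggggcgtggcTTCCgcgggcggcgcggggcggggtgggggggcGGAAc

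The Id2 window held 2 GGAA cores, the Id3 window 3 and the Tcf3 window 3, and 93.4% of 32536 distinct promoter windows of this length held at least 1, so the core by itself does not mark these genes. The longer ETS motif CCGGAAGT (ACTTCCGG on the other strand), which contains the core, was found once in the Tcf3 window and not in the windows of Id2 and Id3, and in 2.90% of all windows. An E-box, CANNTG, which reads the same on both strands, occurred once for Id2 (CAGCTG), once for Tcf3 (CACTTG) and 0 times for Id3, and in 66.2% of all windows. These matches describe letters in short windows, and binding was not measured in these libraries. The study mapped Ets1 binding separately, by ChIP-seq in splenic B cells of WT mice, and those data were not used here. It names Ebf1 among genes with sites bound by both Ets1 and Irf4.

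Among the E proteins, Tcf3 was the most abundant in every library. Tcf3, whose splice forms this single value per gene does not separate, is a minus-strand gene of chromosome 10 (79872259 to 79896392, mm9). It was measured at 111 and 96.8 FPKM in WT and at 98.6 and 140.2 FPKM in Ets1-/- cells. The higher Ets1-/- value lay above both WT values and the lower one between them. Its log2 fold change was 0.18 (standard error 0.22, 95% interval -0.37 to 0.74), with an adjusted p of 0.852 (limma, Benjamini-Hochberg). In WT cells 7.30% of the genes tested had a higher mean than Tcf3. Tcf3 and Tcf4 have also served as names of Wnt pathway factors, but those are listed separately here as Tcf7l1 and Tcf7l2, at no more than 0.141 FPKM in any library.

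Tcf12 (HEB), an E protein best known from thymocytes, lies on chromosome 9 from 71692059 to 71959626 on the minus strand. Its level was 24.9 and 21.3 FPKM in WT and 24.6 and 22.9 FPKM in Ets1-/- cells, the smallest difference of the 3 E proteins. Both Ets1-/- values lay between the WT values. The log2 fold change of 0.04 had a 95% interval from -0.34 to 0.42, so a 2-fold change in either direction lay outside the interval.

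Tcf4 (E2-2), an E protein required for plasmacytoid dendritic cells and also used by B cells, lies on chromosome 18 from 69503800 to 69847621 on the plus strand. It was at 14.3 and 15.5 FPKM in WT and at 17.5 and 9.58 FPKM in Ets1-/- cells. The Ets1-/- replicates thus lay on either side of WT, and their SD of 5.57 FPKM was wider than the WT SD of 0.830 FPKM (n = 2 each). Its log2 fold change of -0.18 (standard error 0.28, 95% interval -0.91 to 0.54) had a Benjamini-Hochberg adjusted limma p of 0.896. Markers of plasmacytoid dendritic cells summed to 4.79 and 2.41 FPKM in WT and 4.05 and 5.18 FPKM in Ets1-/- cells. Of these 5 low genes 1 passed the filter. The sum was lower in the Ets1-/- library with the higher Tcf4 value, and the part of these cells in the Tcf4 values was not tested. The sign of the difference depended on 1 library for each E protein. Without Ets1-/- replicate 2 the log2 fold change was -0.069 for Tcf3 and 0.22 for Tcf4, and without WT replicate 2 it was -0.066 for Tcf12.

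Ebf1, on chromosome 11 from 44430819 to 44821593 on the plus strand, was at 70.8 and 64.2 FPKM in WT and at 72.6 and 75.3 FPKM in Ets1-/- cells. The genotypes did not overlap, but the gap between the nearest values, of WT replicate 1 and Ets1-/- replicate 1, was smaller than the spread between the WT replicates. The log2 fold change was 0.13 (standard error 0.14, 95% interval -0.23 to 0.49), with a Benjamini-Hochberg adjusted limma p of 0.826.

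**Figure D1:**
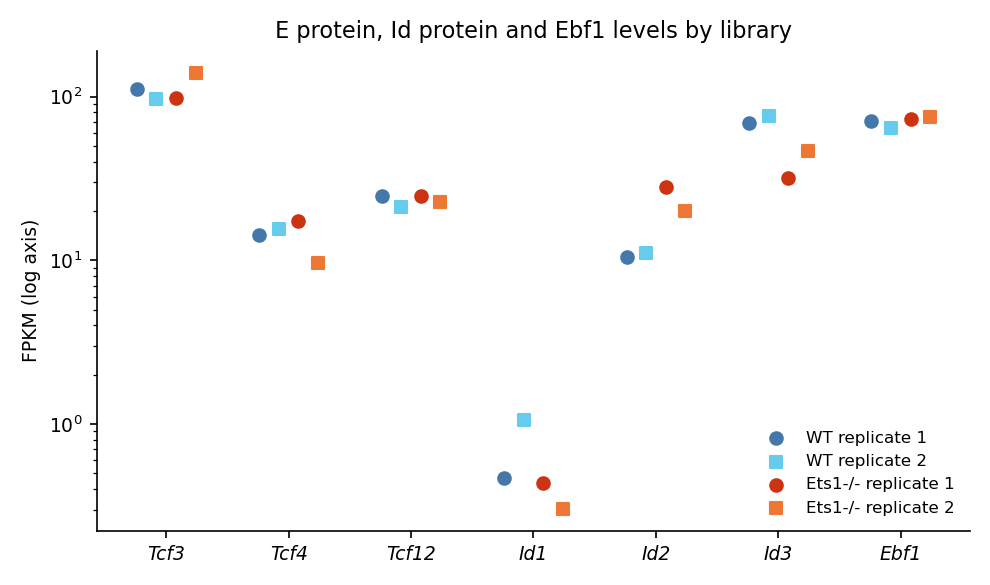
Level of each member in each library, in FPKM on a log axis, with 1 point per library. Id2 is the member whose Ets1-/- points (28.2 and 20.0) sit well above both WT points (10.5 and 11.1), Id3 shows the opposite order, and the points of Tcf3, Tcf4 and Tcf12 overlap between the genotypes.

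Id2 (minus strand of chromosome 12, 25778666 to 25780957 in mm9) was at 10.5 and 11.1 FPKM in WT and at 28.2 and 20.0 FPKM in Ets1-/- cells. Both Ets1-/- libraries were above both WT libraries, and the mean was 2.23 times the WT mean, 24.1 ± 5.78 against 10.8 ± 0.405 FPKM (SD, n = 2 each). The log2 fold change of 1.07 (standard error 0.20, 95% interval 0.57 to 1.58) was past the 2-fold minimum. The Benjamini-Hochberg adjusted limma p of 0.0809 missed its threshold. Of the 10949 genes tested, 3.33% had a lower unadjusted p than Id2. With a robust estimate of the variance the adjusted limma p was 0.0299 and Id2 was called. A fit with replicates paired across their numbers also called Id2 (adjusted limma p of 0.00136). That pairing was added after seeing the data and follows no label, so it adds no support. The 6 other alternatives that kept all libraries did not call Id2. When single libraries were dropped, the log2 fold change lay between 0.83 and 1.31. Those fits leave 1 library in a genotype and assume that it varies like the other genotype, so their adjusted limma p, which ran up to 0.391, depends on that assumption.

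Id3, on chromosome 4 from 135699412 to 135701670 on the plus strand, was at 68.6 and 75.9 FPKM in WT and at 31.7 and 46.4 FPKM in Ets1-/- cells. Both Ets1-/- libraries were below both WT libraries, and the WT mean was 1.85 times the Ets1-/- mean, 72.3 ± 5.22 against 39.0 ± 10.4 FPKM (SD, n = 2 each). The log2 fold change was -0.90 (standard error 0.22, 95% interval -1.45 to -0.34), short of 2-fold, with a Benjamini-Hochberg adjusted limma p of 0.152. Leaving out each library in turn gave values between -1.16 and -0.63. The Ets1-/- library with the higher Id2 value was the one with the lower Id3 value.

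Id1, on chromosome 2 from 152561987 to 152563146 on the plus strand, was at a low level. It was at 0.465 and 1.06 FPKM in WT and at 0.438 and 0.303 FPKM in Ets1-/- cells. The genotypes did not overlap, but WT replicate 1 and Ets1-/- replicate 1 were nearly equal and the WT replicates lay farther apart than that. Without the filter on low values its log2 fold change was -0.34 on the log2(FPKM + 1) scale, with a Benjamini-Hochberg adjusted limma p of 0.601. The related Id4 was above 0 in 1 library, Ets1-/- replicate 1, at 0.0387 FPKM. Of the other Ebf genes, Ebf2 was listed at 0 in all libraries, and Ebf3 and Ebf4 were at no more than 0.0228 FPKM.

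**Figure D2:**
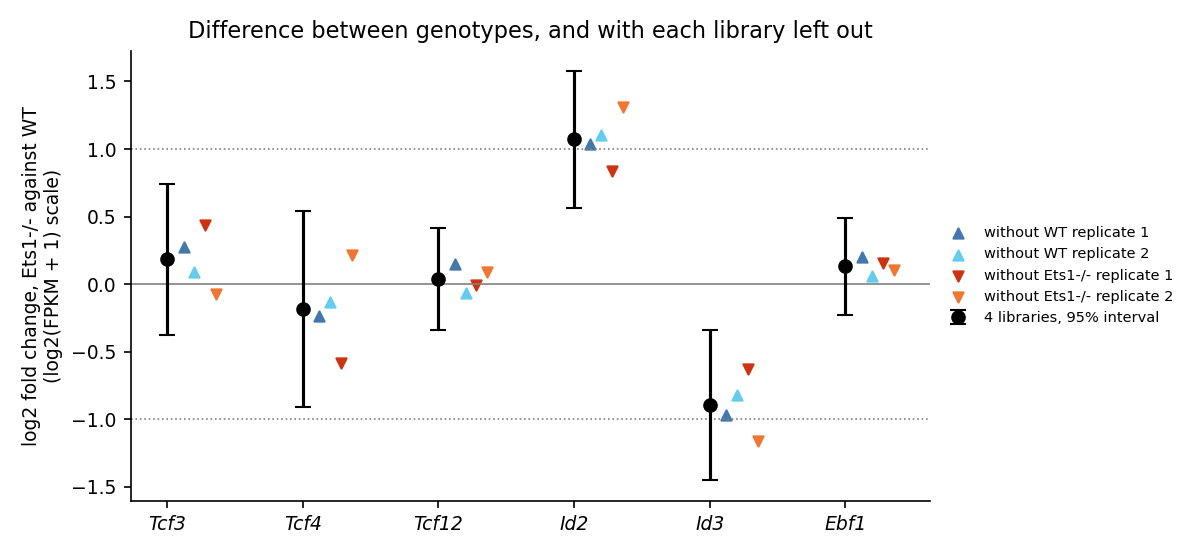
Log2 fold change of each tested member between Ets1-/- and WT, on the log2(FPKM + 1) scale. Black points with bars are the estimates from 4 libraries with their 95% interval, triangles are the estimates with 1 library left out, and dotted lines mark a 2-fold change. The intervals of Id2 (0.57 to 1.58) and Id3 (-1.45 to -0.34) do not include 0, and the triangles of Tcf3, Tcf4 and Tcf12 lie on both sides of 0.

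The order of the levels differed between the genotypes in its middle part. In WT cells it ran from Tcf3 over Id3, Ebf1, Tcf12, Tcf4 and Id2 to Id1, and the replicate ranges of Id3 and Ebf1 overlapped, so these neighbours could not be ordered. In Ets1-/- cells it ran from Tcf3 over Ebf1, Id3, Id2, Tcf12 and Tcf4 to Id1, and Id2 and Tcf12 overlapped. All other neighbours in both orders had separate replicate ranges. By rank among the 10949 genes tested, Id2 stood at 6306 in WT and 3689 in Ets1-/- cells, Id3 at 1198 and 2342, and Tcf3 at 800 and 713.

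Within a library, ratios between genes do not depend on the scaling between libraries. Id2 made up 13.2% and 12.6% of the summed Id transcripts (Id1, Id2 and Id3, in FPKM) in WT, and 46.8% and 30.0% in Ets1-/- cells. The ratio of Id2 to Id3 was 0.153 and 0.146 in WT and 0.890 and 0.432 in Ets1-/- cells. The WT replicates were close to each other and the Ets1-/- replicates were not, but both lay above WT. On the log2 scale the ratio was higher by 2.05 in Ets1-/- cells, with an exact two-sided permutation p of 0.333, which is the smallest that 2 libraries against 2 can give. This ratio was added after the values of both genes had been seen.

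The summed Id level was lower in Ets1-/- cells, since the difference in Id3 was larger in FPKM than that in Id2. The sum was 79.5 and 88.1 FPKM in WT and 60.3 and 66.7 FPKM in Ets1-/- cells, with no overlap. The summed E protein level overlapped, at 149.7 and 134 FPKM in WT and 141 and 173 FPKM in Ets1-/- cells, and Tcf3 made up between 70.1% and 81.2% of it in each library. The ratio of the Id sum to the E protein sum was 0.531 and 0.659 in WT and 0.429 and 0.386 in Ets1-/- cells. Both Ets1-/- libraries lay below both WT libraries by this ratio. The difference was -0.54 on the log2 scale, from -0.76 ± 0.22 to -1.30 ± 0.11 (SD, n = 2 each), and its exact two-sided permutation p of 0.333 was again the smallest possible. With the mean of the log2 levels of each family in place of the sum, which gives the low Id1 the same weight as Id3, the difference was -0.25 and the genotypes overlapped, with an exact permutation p of 1.00. These are transcript levels, and protein was not measured.

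**Figure D3:**
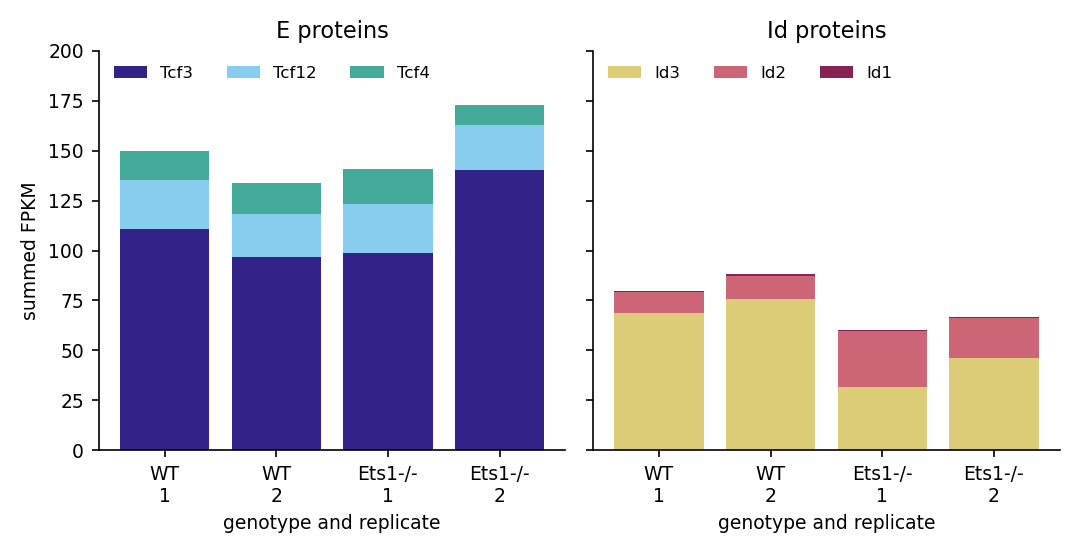
Summed FPKM of the E proteins (left) and the Id proteins (right) in each library, stacked by gene. The Id bars are 79.5 and 88.1 in WT and 60.3 and 66.7 in Ets1-/- cells, with the Id2 part larger and the Id3 part smaller in Ets1-/- cells, and the E protein bars are mostly Tcf3 in all libraries.

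Transcripts of cells other than B cells moved with the genotype, and their part in the Id2 and Id3 differences was not tested. Neutrophil genes, S100a8 among them, were higher in both Ets1-/- libraries for 8 of 8 genes. Of all genes tested, 41.6% did not overlap between the genotypes, counting both directions. The neutrophil sums were 111 and 90.9 FPKM in WT and 2466 and 677 FPKM in Ets1-/- cells. Of these 8, 3 (Camp, Ngp and Ltf) were called higher, beside 0.877% of all genes tested. Erythroid genes were higher for 4 of 4, with sums of 6.21 and 3.95 FPKM against 63.5 and 27.5 FPKM. Monocyte and macrophage genes were higher by their mean for 5 of 6, with sums of 50.5 and 23.4 FPKM against 133 and 86.8 FPKM, and 1 of them, Emr1 (the F4/80 antigen), was called higher. All 3 sums were higher in Ets1-/- replicate 1 than in replicate 2, the order also seen for Id2. In the monocyte and macrophage list 5 of 6 genes had this order. Its highest gene, Lyz2, was at 102 and 45.7 FPKM in Ets1-/- cells. Emr1, the called gene, had the other order, at 23.5 and 37.2 FPKM. No gene of these lists was at 0 in all libraries. Without Ets1-/- replicate 1, the library with the highest sums, the log2 fold change was 0.83 for Id2 and -0.63 for Id3. Ets1-/- replicate 2, the library then left, also had all 3 sums above both WT libraries. Leaving out replicate 1 therefore does not test the part of other cells.

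The lists of lymphoid and dendritic cells had sums that lay closer together. Natural killer and innate lymphoid genes, cells in which Id2 is abundant, summed to 35.0 and 22.8 FPKM in WT and 17.4 and 26.0 FPKM in Ets1-/- cells, and Ncr1, a receptor of natural killer cells, was at 2.42 and 0.957 FPKM in WT and at 0.0224 and 0.128 FPKM in Ets1-/- cells. The sums overlapped between the genotypes, and 3 of the 6 genes were higher and 3 lower by their mean in Ets1-/- cells. Dendritic cell genes, of another cell type known for Id2, summed to 3.87 and 4.14 FPKM against 5.82 and 5.07 FPKM, without overlap. By their mean 5 of these 5 genes were higher in Ets1-/- cells, and their part in the Id2 difference was not tested. T cell genes overlapped between the genotypes, at 110 and 90.5 FPKM against 87.2 and 113 FPKM. Marginal zone B cell genes summed to 100.1 and 122 FPKM in WT and 99.8 and 73.3 FPKM in Ets1-/- cells. Germinal centre genes summed to 40.7 and 51.7 FPKM against 31.2 and 35.9 FPKM, and plasma cell genes to 120 and 115 FPKM against 93.0 and 129 FPKM. Of genes tested in these 6 lists and the plasmacytoid dendritic cell list, 0 were called in either direction, beside 1.70% of all genes tested.

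**Figure D4:**
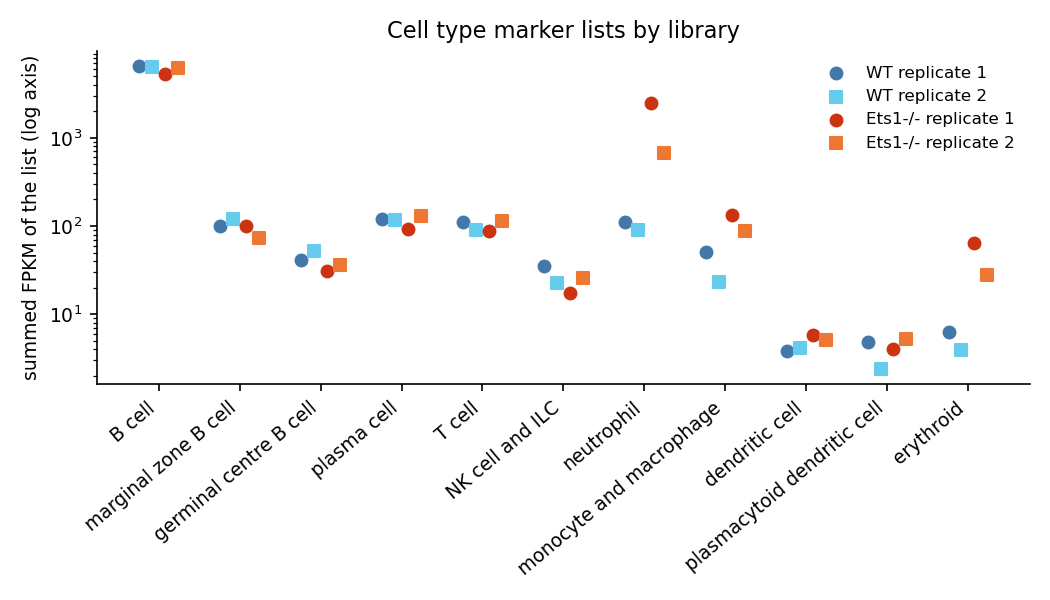
Summed FPKM of each list of cell type markers by library, on a log axis, with 1 point per library. The neutrophil, monocyte and macrophage, and erythroid lists are higher in both Ets1-/- libraries, with neutrophil sums of 2466 and 677 against 111 and 90.9 in WT, and the B cell list lies between 5233 and 6524.

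The other genes of the network were taken as lists of cofactors, targets and inputs. Of 13 cofactors of E proteins, Id proteins and Ebf1, 11 were tested. Of these 0 were called, beside 1.70% of all genes tested, and their median log2 fold change was -0.07. Lmo2, an adaptor that joins basic helix-loop-helix factors to other DNA-binding proteins, was at 211 and 195 FPKM in WT and at 278 and 295 FPKM in Ets1-/- cells, above WT in both libraries. Its log2 fold change of 0.50 had a Benjamini-Hochberg adjusted limma p of 0.251. Ldb1, which binds Lmo2, was at 143 and 127 FPKM against 102 and 118 FPKM, and the co-activator Ep300 was at 30.5 and 28.9 FPKM against 28.6 and 20.9 FPKM. Both were lower in both Ets1-/- libraries, with adjusted limma p of 0.573 and 0.676. Of the 6 tissue-restricted partners of E proteins, Lyl1 was the one at a high level, at 124 and 98.1 FPKM in WT and 74.0 and 109 FPKM in Ets1-/- cells, which overlapped. Bhlha15 (Mist1), a factor of secretory cells, was at 0.671 and 0.862 FPKM against 1.10 and 1.01 FPKM, with an adjusted limma p of 0.704. Msc, an inhibitor found in activated B cells, was at no more than 0.0355 FPKM.

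Of 18 genes that Tcf3 and Ebf1 are known to activate in the B lineage 14 were tested and 0 were called, in comparison with 0.822% of all genes tested that were called lower. Their median log2 fold change was -0.16, beside -0.02 for all genes, and 7 of the 14 did not overlap between the genotypes, beside 41.6% of all genes tested. The 3 with an unadjusted limma p under 0.05, beside 13.3% of all genes tested, were lower in Ets1-/- cells. Foxo1, a factor of the same early B cell network, was at 51.9 and 51.0 FPKM in WT and at 33.6 and 37.6 FPKM in Ets1-/- cells (log2 fold change -0.52, Benjamini-Hochberg adjusted p = 0.180 in limma). Vpreb3, a chaperone of immunoglobulin chains, was at 156 and 154 FPKM against 103 and 118 FPKM. Cr2 (CD21), a complement receptor whose surface level was also a sorting gate, was at 102 and 116 FPKM against 65.1 and 30.0 FPKM. Pax5, a textbook target in this network, overlapped between the genotypes, with a log2 fold change of 0.08. Rag1, Rag2, Vpreb1 and Igll1, which belong to precursor B cells, were at no more than 0.563 FPKM in any library.

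Signals that are known to set Id gene levels were looked at last. Egr factors are known to induce Id3 downstream of antigen receptors in lymphocytes. Egr1 was at 132 and 250.2 FPKM in WT and at 636 and 462 FPKM in Ets1-/- cells, and Egr2 was at 4.86 and 9.20 FPKM against 19.4 and 11.6 FPKM. Both were above WT in both Ets1-/- libraries, with Benjamini-Hochberg adjusted limma p of 0.133 and 0.288, while Egr3 overlapped at 41.7 and 39.2 against 37.5 and 45.1 FPKM. Of 14 genes of the BMP and TGF-beta pathway, whose Smad proteins act on Id promoters, 9 were tested. Of these 0 were called, beside 1.70% of all genes tested, and their median log2 fold change was -0.11. Smad3, which carries TGF-beta signals, was at 9.43 and 8.35 FPKM in WT and at 5.48 and 4.70 FPKM in Ets1-/- cells (log2 fold change -0.70, Benjamini-Hochberg adjusted p = 0.121 in limma). Smad1, which carries BMP signals, was at 3.44 and 3.71 FPKM against 4.67 and 5.88 FPKM. Smad7, an inhibitory Smad, was at 14.3 and 18.3 FPKM against 11.2 and 14.6 FPKM, which overlapped (log2 fold change -0.31, adjusted limma p of 0.639). The BMP receptor genes Bmpr1a and Bmpr2 were at no more than 0.243 FPKM.

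**Figure D5:**
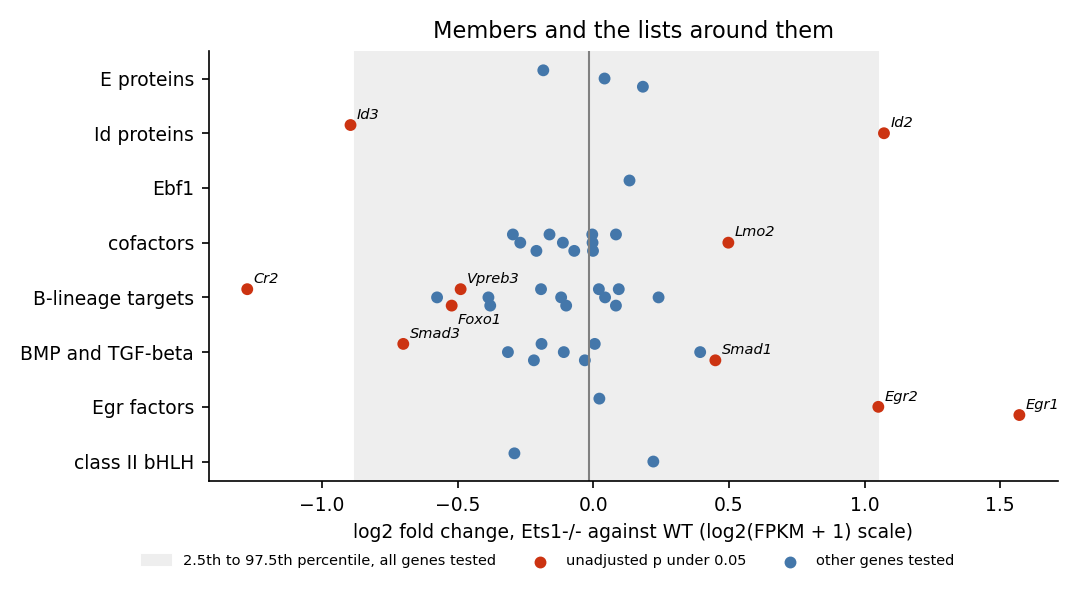
Log2 fold change between Ets1-/- and WT on the log2(FPKM + 1) scale for the tested genes of the 3 member groups and of 5 lists around them, with 1 point per gene, red where the unadjusted p was under 0.05. The grey band spans the central 95% of all 10949 genes tested (-0.88 to 1.05) and the line is their median. Id3, Id2, Cr2, Egr1 and Egr2 lie at or outside the band, and 0 genes of these lists were called, beside 1.70% of all genes tested.

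The genes whose pattern over the 4 libraries was nearest to that of a member were found by the distance between centred log2(FPKM + 1) values, a description over 4 libraries and no sign of a shared role. For Id2 they were Cacna1s and Nedd4 (distances 0.09 and 0.10), of which Nedd4, a ubiquitin ligase, was at 9.03 and 9.02 FPKM in WT and at 22.1 and 16.4 FPKM in Ets1-/- cells. For Id3 they were Trim34a and B3gnt3 (both 0.09), of which Trim34a was at 44.6 and 46.3 FPKM against 20.8 and 29.9 FPKM. For the members with smaller differences they were Klc3 and Sbno2 (Tcf3), Rictor and Sec63 (Tcf4), Adat1 and 2610507I01Rik (Tcf12), and Mettl25 and Mast1 (Ebf1), at distances from 0.01 to 0.03.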

How the data were processed

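RNA-seq of sorted follicular B cells was used from 2 WT and 2 Ets1-/- libraries. The authors aligned reads to mm9 with TopHat2 (2.0.13 in the submitters' processing notes), ran Cuffdiff, and deposited 1 FPKM value per gene symbol and library. The Cuffdiff version, the annotation and any scaling between libraries are not given in the sources used here. Of 23309 entries 4 with repeated symbols were left out. FPKM values were analysed as log2(FPKM + 1), which understates fold changes of low genes, with limma 3.58.1 (lmFit, eBayes with trend) in R 4.3.3. The fit was tested on simulated data. Sums, ratios and exact permutation tests were computed in Python 3.11.15. Other pseudocounts, filters, scalings, variance estimates, blocks and left-out libraries were tried.

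The members and gene lists were chosen with earlier results of these data known. From each list, genes that passed, the 3 with the lowest p, genes at 0 in all libraries and, for markers, the sums and the highest gene were to be named, and for each member the 2 genes nearest in pattern. Pax5, Msc, the precursor B cell genes, Ncr1, Id4, Ebf3, Ebf4 and the BMP receptors were named after their values were seen. Positions are from GENCODE M1 (mm9), in which no other gene shared exon bases with a member. Nothing beyond the term biological replicate says that libraries came from separate mice, so p-values measure the spread between these libraries.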

Additional observations from a re-analysis of the deposited data

How the results depend on the processing

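The count of 186 called genes was 305 with a robust variance estimate and 75 without the filter on low values, which adds low genes to the adjustment. It lay between 130 and 144 when single replicates were dropped, in fits that take the spread of the lone library from the other genotype. The count of called members, 0 of 6, was 1 (Id2) with the robust variance estimate and 0 for the other pseudocounts and scalings, without the filter and without any 1 replicate. A replicate block called 266 genes and 0 members, with an adjusted p in limma of 0.0665 for Id2 and 0.112 for Id3. The genotypes share replicate numbers in name alone, and the deviations of same-numbered libraries had a weak negative correlation across genes (-0.21). A crossed replicate block, added after seeing the data, called 409 genes and 1 member, Id2. It gave Id3 an adjusted limma p of 0.0132, with its fold short of the minimum. The crossed pairing follows no label, so these calls add no support. A replicate block cannot alter the mean difference in the log2 ratio of Id to E proteins, which was -0.54. Its exact permutation p of 0.5 is the smallest that 2 pairs can give.

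Id2, Id3 and Ebf1 did not overlap between the genotypes, so among the 12 alternatives only the scalings between libraries could turn their direction. Directions held for these genes. They turned for log2 fold change of Tcf3, which ran from -0.069 (without Ets1-/- replicate 2) to 0.43 (without Ets1-/- replicate 1), of Tcf4, from -0.59 to 0.22 for the same libraries in reverse, and of Tcf12, from -0.066 (without WT replicate 2) to 0.15 (without WT replicate 1), with -0.01 without Ets1-/- replicate 1. With single replicates dropped, the difference in the log2 ratio of the Id sum to the E protein sum lay between -0.70 and -0.38 and that of Id2 to Id3 between 1.53 and 2.57, and the former was -0.58 with Id2 and Id3 over Tcf3 alone. B-lineage targets had 1 call without Ets1-/- replicate 1 and 1 with the crossed block, Egr factors had 1 without WT replicate 2 and 2 with the crossed block, and the lists had 0 in all other alternatives. The causes of these shifts were not tested.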
